A study of Rattus norvegicus with 18 samples.

Results

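Cortex of rats with cerebral ischemia and erythropoietin (EPO) was compared with cortex of sham-operated rats 2 h after the operation, gene by gene. The comparison rests on 6 of the 18 samples of the series, chosen by their labels alone: 3 arrays labelled as ischemic brain cortex with EPO at 2 h and 3 labelled as sham at 2 h. All animals were male rats of the outbred strain Crl:CD(SD)BR, and each sample was hybridized to its own 1-colour oligonucleotide array. Ischemia was made by occlusion of the middle cerebral artery (MCAO), the vessel that supplies most of the lateral cortex. The sham rats were operated on and are labelled as having had no treatment, neither EPO nor the saline given to the other ischemic rats at 2 h. A difference between EPO-treated ischemia and sham therefore joins the effects of ischemia, of giving a treatment and of EPO, which cannot be told apart in this comparison. The dose, route and time of EPO, whether the vessel was reopened and which part of the cortex was taken are not given in the sources used here. The labels do not say whether samples were pooled, so p-values measure the spread between these samples.

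EPO is the hormone that keeps red cell precursors alive, and it signals through a cell surface receptor, Epor, to the kinase Jak2 and the transcription factor Stat5. Neurons, glia and brain endothelium carry little of this receptor, and EPO has been studied in rodents as a protector of neurons after stroke. When blood flow to cortex stops, neurons lose ion gradients and release glutamate. Calcium entry then switches on immediate-early genes, which need no new protein to be transcribed. Misfolded proteins release heat shock factor, and damaged cells release signals that make microglia and endothelium produce chemokines.

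Levels below are log2 processed signal minus the array's own 75th percentile, so a gene at 0 reads as bright as that percentile and 1 unit is a factor of 2. Differences are log2 differences of group means ± the standard error of a limma model of all 18 arrays. A gene was called where the Benjamini-Hochberg adjusted p, over all 28634 probes tested, was below 0.05. Every group holds n = 3 arrays, and that number limits the precision: the median standard error was 0.13. Among the 6 arrays, the share of probes well above background was 62.3% to 80.2%. Spiked-in transcripts of known amount gave log-log slopes of 0.938, 0.851 and 0.847 on the EPO arrays and 0.788, 0.828 and 0.846 on the sham arrays. Every EPO array was thus steeper than every sham array, and EPO replicate 1 was the steepest. EPO replicate 1 was also the only one of the 6 on the slide scanned on a second day. It correlated with the other EPO arrays at 0.961 to 0.973, which correlated with each other at 0.993, and the sham arrays correlated with each other at 0.981 to 0.992. Slide 4 was the only slide with an array of both groups.

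The response was mostly a rise of a small set of genes. By the probe of highest mean signal for each gene, 208 of 12427 genes were higher than in sham (1.67%) and 30 were lower (0.241%). Of the genes that rose, 63 did so at least 2-fold and 24 at least 4-fold, and of those that fell, 0 reached 2-fold. Over all genes the median difference was -0.02. By probe, 335 were higher (1.17%) and 71 lower (0.248%), and 3509 of the 28634 had an unadjusted p below 0.05. Without overlap between the groups, 2732 probes were higher (9.54%) and 2855 lower (9.97%). Of the 406 probes called, 111 could not be given a gene symbol. All 406 had the same sign on slide 4 alone, whose arrays were also part of the fit.

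The share of rises depended on the scaling. It was 82.5% of probes called with the 75th percentile over all probes, 66.3% with that percentile over the probes tested, 64.3% with the authors' unscaled values and 100% with the array median. The median difference over all probes was 0.26 with the array median and -0.04 with the 75th percentile. A fit of the 6 arrays alone, with fewer degrees of freedom, called 13 probes, all higher. These stand for 9 genes with a symbol: Bdnf, Cxcl1, Dusp1, Hspa1a, Hspb1, Nr4a1, Nr4a2, Rasl11a and Slc25a25. Without EPO replicate 1, 139 of the 208 higher genes and 14 of the 30 lower genes were called again.

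Dim genes leaned downwards, and most on 1 array. For 3881 genes with a mean level below -2 the median difference from sham was -0.29. It was -0.61 on EPO replicate 1 alone and -0.13 on the mean of the other 2 EPO arrays. For 2484 genes at a level of 2 or above, the medians were 0.08, 0.1 and 0.07. In the plot of change by level the cloud is wide at its lower left, and 8 of the 30 falls lie there. The part of this array in those falls was not tested beyond leaving it out.

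**Figure D1:**
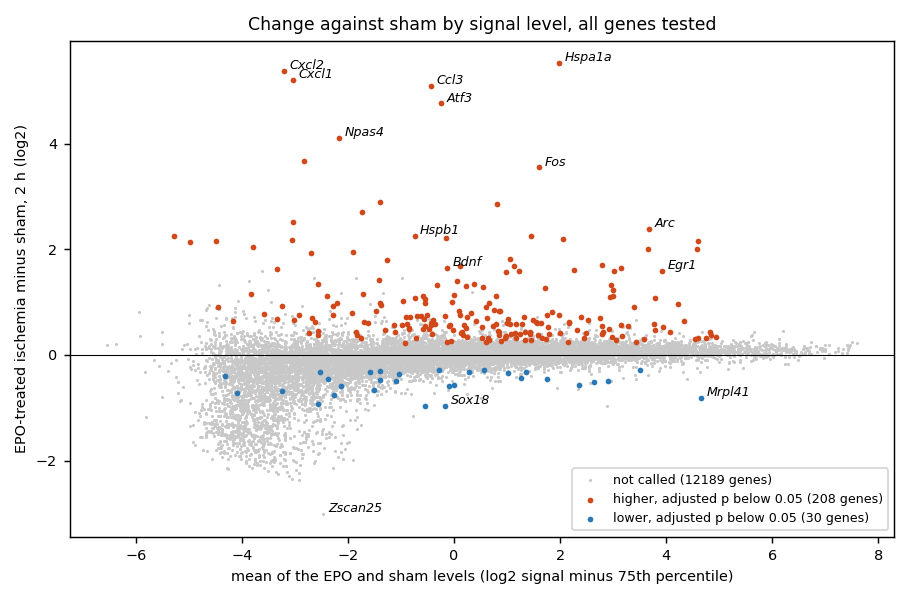
Each point is 1 of the 12427 genes tested, with the mean of its EPO and sham levels at 2 h on the x axis and the log2 difference on the y axis. The 208 higher genes (red) reach 5.52, while the 30 lower genes (blue) stay above -1, inside a grey cloud of uncalled genes that widens downwards at low levels.

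Immediate-early transcription factors made up the group with the most calls. Of 28 measured members 21 rose and 0 fell, against 1.67% and 0.241% of all genes, with a median of 1.18 against -0.02 over all genes. The list median stayed between 1.04 and 1.48 over the alternative analyses, while the number called ran from 2 with the 6 arrays alone to 22. This list and those below were chosen with earlier results of these data known, so their counts describe the lists and are not independent support. The same 2 shares of all genes stand beside each count. Fos, the founding member of the AP-1 family (probe A_44_P495480), read 3.37, 3.59 and 3.17 on the EPO arrays and 0.66, -0.35 and -0.83 on the sham arrays. The groups lie far apart, and the sham arrays spread more than the EPO arrays. Fos was 11.8-fold higher (3.55 ± 0.31, adjusted p = 5.18e-05). Atf3, a stress-induced repressor (probe A_43_P11616), read 1.64, 2.56 and 2.18 with EPO and -1.45, -3.11 and -3.34 in sham, a 27.1-fold rise (4.76 ± 0.37, adjusted p = 2.36e-05). Sham replicate 1 was the highest of the 3 sham arrays for both genes.

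Npas4, a factor that calcium entry into neurons switches on (probe A_44_P512806), read -0.94, 0.78 and -0.17 with EPO. In sham it read -3.65, -4.52 and -4.50, with 1 of 3 arrays above background, so no fold is given and the difference was 4.11 ± 0.50 (adjusted p = 0.000527). Fosl1, another AP-1 partner, read -1.93, -1.44 and -2.01 against -3.24, -4.53 and -5.14, also with 1 sham array above background (2.51 ± 0.37). Junb, the AP-1 partner that restrains Jun, read 2.31, 2.91 and 2.50 against 0.69, 0.32 and -0.03 and was 4.75-fold higher. Fosl2 was 3.86-fold higher and Jun 2.33-fold.

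Of the zinc finger factors of the Egr family, Egr1, Egr2 and Egr4 rose, while the dim Egr3 was at 0.23 ± 0.23 and did not pass (adjusted p = 0.639). Egr2 (probe A_42_P473594), which also directs Schwann cell myelination, read 2.27, 2.41 and 2.03 with EPO and 0.12, -1.10 and -0.88 in sham. It was 7.27-fold higher (2.86 ± 0.30, adjusted p = 0.000136). Egr1 (probe A_44_P233080), the most used marker of neuronal activation of this family, read 4.69, 4.84 and 4.63 against 3.40, 3.06 and 2.94 and was 3.00-fold higher (1.59 ± 0.14). It was already bright in sham, above the 75th percentile on every array. Egr4 was 4-fold higher, from 3.21 to 4.06 in sham to 5.39 to 5.72 with EPO.

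The orphan nuclear receptors of the Nr4a family, which need no ligand, rose as a family too. Nr4a1 was 4.43-fold higher, Nr4a3 3.01-fold and Nr4a2 2.08-fold (1.05 ± 0.09, adjusted p = 4.9e-05). Nr4a1 and Nr4a2 were called in all 23 alternative analyses. Btg2, an antiproliferative co-factor, was 4.61-fold higher and Ier2, a nuclear protein of early growth responses, 3.26-fold. Ier3 rose by 1.13 ± 0.08, Klf6 by 0.90 ± 0.12 and Klf4 by 0.85 ± 0.14. Csrnp1 (0.98 ± 0.20), Fosb (0.76 ± 0.14) and Myc (0.51 ± 0.10) were also called, in 10, 13 and 6 of the 23 alternatives.

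**Figure D2:**
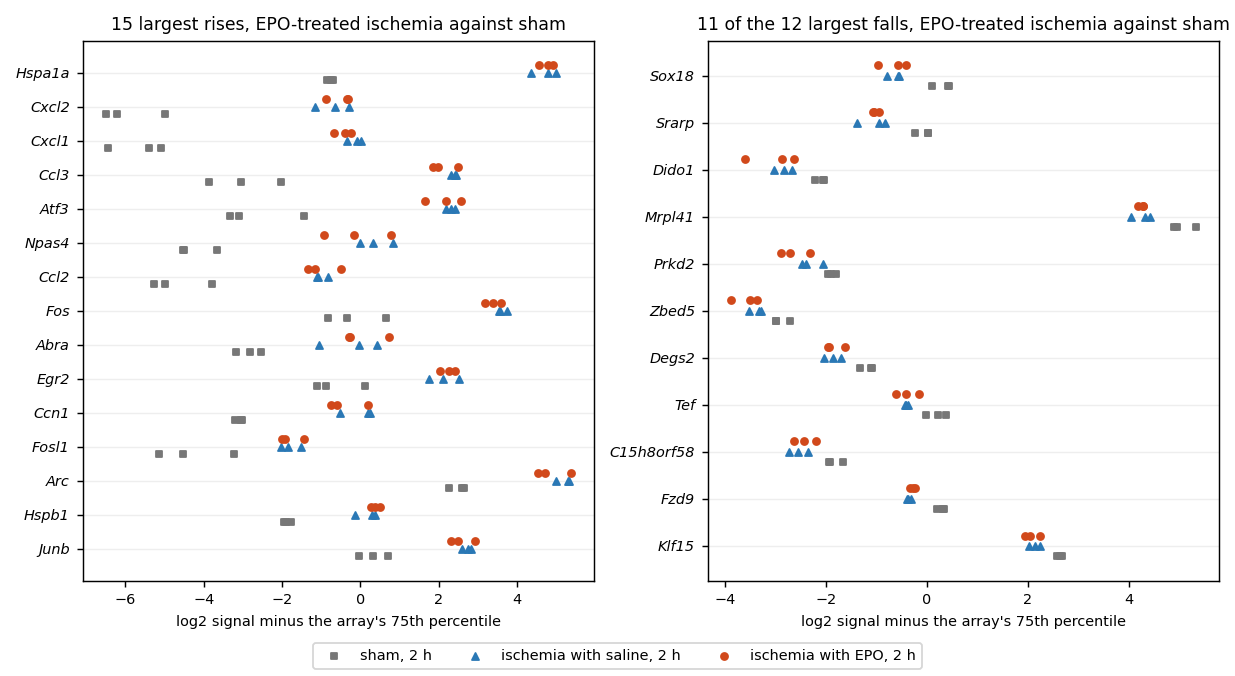
Levels on each array of the 15 largest rises (left) and 11 of the 12 largest falls (right), as log2 signal minus the array's 75th percentile; each point is 1 array, squares are sham, triangles ischemia with saline and circles ischemia with EPO, all at 2 h. The circles and squares do not overlap for any of these genes, which the choice of the genes required, and the triangles lie beside the circles.

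Promoter sequence bears on this group because serum response factor acts through the CArG box and CREB through the cyclic AMP response element (CRE, TGACGTCA). Both strands of the 250 bases before the start site of RefSeq genes (build GRCr8) were searched, with a window for 10077 of the genes tested. Of 33 named genes called higher in the immediate-early, heat shock and cytokine lists, 22 had a window. Fos, Atf3, Ier3, Nr4a3, Ccl2, Ccl3 and Ccl4 had none and were not searched. A CRE was found in 13 of 162 windows of higher genes (8.02%), in 5 of the 48 windows of genes at least 2-fold higher (10.4%) and in 272 of all 10077 (2.7%). A CArG box was found in 6 of the 162 (3.7%), 4 of the 48 (8.33%) and 112 of all (1.11%). These are counts of letters, not of bound sites, and were not tested. The stretches of rapidly rising genes are shown with the motif in capitals, from 5' to 3' on the gene's strand.
Ier2 (CRE, chr19:40399293-40399328, plus strand): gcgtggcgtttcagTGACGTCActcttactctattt
Btg2 (CRE, chr13:48087870-48087905, minus strand): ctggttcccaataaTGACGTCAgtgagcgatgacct
Egr2 (CArG box, chr20:21054501-21054538, minus strand): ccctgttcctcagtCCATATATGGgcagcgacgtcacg
Klf6 (CArG box, chr17:69458656-69458693, minus strand): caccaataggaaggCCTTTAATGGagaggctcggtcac

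The AP-1 site TGACTCA was in 6 of the 162 windows (3.7%) and 334 of all (3.31%). The TATA box TATAAA was in 23 (14.2%) and 768 (7.62%).

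Several chemokines rose far above sham. Of 25 cytokines and chemokines tested, 6 rose and 0 fell, with a list median of 0.28, and the 6 were Cxcl1, Cxcl2, Ccl2, Ccl3, Ccl4 and Il1b. Cxcl2 (probe A_44_P515197), which draws neutrophils, read -0.35, -0.32 and -0.89 with EPO and -4.99, -6.22 and -6.50 in sham. Cxcl1 (probe A_42_P473398), its close relative, read -0.40, -0.25 and -0.67 against -5.09, -6.44 and -5.40. Both genes were above background on every EPO array and on 0 of 3 sham arrays. Set against the background of each sham array, the rises were at least 15.2-fold for Cxcl2 (5.38 ± 0.32, adjusted p = 1.92e-06) and at least 16.1-fold for Cxcl1 (5.2 ± 0.33, adjusted p = 2.8e-06).

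Ccl3 (probe A_42_P714311), made by activated microglia and macrophages, read 2.49, 1.99 and 1.85 with EPO and -2.02, -3.87 and -3.06 in sham, a 34.1-fold rise (5.09 ± 0.36). Ccl2 (probe A_42_P695401), which draws monocytes, read -0.49, -1.17 and -1.34 against -3.78, -5.26 and -4.98, with 1 sham array above background (3.67 ± 0.35). Ccl4, the partner of Ccl3, rose by 2.05 ± 0.32, also with 1 sham array above background. Il1b (probe A_44_P230320), the inflammasome cytokine, read -1.74, -1.84 and -1.62 against -2.83, -4.00 and -4.14 and was 3.80-fold higher (1.92 ± 0.29, adjusted p = 0.00309). The interferon-induced chemokine Cxcl10 was at 0.48 ± 0.24 and did not pass (adjusted p = 0.455). The number of list members called ran from 1 with the 6 arrays alone to 12.

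The promoters of Cxcl1 and Cxcl2 each hold an NF-kB site close to the start site. It reads as such on both strands. Such a site was in 15 of the 162 windows of higher genes (9.26%) and in 853 of all 10077 (8.46%). Nr4a1, with a site 16 to 7 bases before its start, and Egr4, with 2 sites, hold such sites too. The site is thus not particular to chemokines. The stretches of Cxcl1 and Cxcl2 are shown with the site in capitals.
Cxcl1 (chr14:17479381-17479419, minus strand): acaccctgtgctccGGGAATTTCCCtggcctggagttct
Cxcl2 (chr14:17467305-17467343, minus strand): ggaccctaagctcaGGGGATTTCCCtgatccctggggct

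Heat shock proteins held the single largest rise. Hspa1a, the HSP70 chaperone that stress induces (probe A_44_P1042876), read 4.78, 4.90 and 4.55 with EPO and -0.76, -0.85 and -0.71 in sham. It was 45.9-fold higher (5.52 ± 0.17, adjusted p = 1.09e-09), and the arrays within each group lay close together. Hspa1a has a near-identical copy, Hspa1b, whose own probe was above background on 0 of these 6 arrays and was not tested. Signal of both copies on the Hspa1a probe cannot be told apart.

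Of 18 heat shock proteins and co-chaperones, 6 rose and 0 fell, with a list median of 0.20. Hspb1 (probe A_44_P992908), the small heat shock protein HSP27, read 0.27, 0.38 and 0.51 with EPO and -1.77, -1.96 and -1.91 in sham, a 4.81-fold rise (2.26 ± 0.13, adjusted p = 1.65e-06). Hspa1a and Hspb1 were called in all 23 alternative analyses. The other 4 rises were smaller. Dnajb1, the co-chaperone that hands substrates to HSP70, was 1.62-fold higher (0.70 ± 0.12). Hsph1 (HSP110, an exchange factor of HSP70) was at 0.47 ± 0.09, Dnaja1 at 0.43 ± 0.09 and the lens and astrocyte chaperone Cryab at 0.43 ± 0.09. Those 3 were called in 11, 7 and 6 of the 23 alternatives. Outside the list, the small heat shock protein Hspb3 rose by 0.92 ± 0.15 and the co-chaperone Dnajb4 by 0.59 ± 0.10. Without EPO replicate 1, 3 of the 18 were called.

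The heat shock element, spelled GAANNTTCNNGAA and searched on both strands, was in 1 of the 162 windows of higher genes (0.617%) and in 40 of all 10077 (0.397%). That 1 gene was Hsph1, whose element is in capitals.
Hsph1 (chr12:10427318-10427358, plus strand): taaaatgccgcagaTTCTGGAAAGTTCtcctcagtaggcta

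Activity-regulated plasticity genes, which carry synaptic activity into lasting change, rose in 15 of 25 and fell in 0, with a median of 0.62. Of all genes 1.67% rose and 0.241% fell. Arc (probe A_44_P118724), which tunes glutamate receptors at synapses, read 4.53, 5.37 and 4.70 with EPO and 2.64, 2.58 and 2.25 in sham. The groups lie far apart, and Arc was 5.19-fold higher (2.38 ± 0.24, adjusted p = 0.000115). Bdnf (probe A_44_P219026), the neurotrophin that supports cortical neurons, read 0.80, 0.71 and 0.59 against -0.76, -1.10 and -1. It was 3.14-fold higher (1.65 ± 0.20, adjusted p = 0.00055) and was called in all 23 alternatives. Ccn1, a secreted matrix protein, read -0.75, 0.20 and -0.60 against -3.19, -3.03 and -3.06 and was 6.56-fold higher; its second probe was at 1.36 and was not called.

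The rest of these rises were from 0.41 to 1.40. Rasl11a, a small GTPase of the nucleolus, rose by 1.40 ± 0.16, the salt-inducible kinase Sik1 by 1.27 ± 0.13 and the repressor Crem by 1.12 ± 0.10. Rgs2, which damps G protein signals, rose by 1.08 ± 0.13 and the polo-like kinase Plk3 by 1.03 ± 0.10. Gadd45b (0.99 ± 0.18), Nptx2 (1.11 ± 0.24) and Syt4 (0.41 ± 0.08) were called in 13, 7 and 11 of the 23 alternatives. Genes of synaptic transmission itself, such as receptors, channels and release proteins, passed in 0 of 28, with a median of 0.00. The vesicle protein Snap25 was at 0.10 ± 0.07 and the sodium channel Scn1a at -0.22 ± 0.08.

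Kinase feedback genes rose beside them. Of 14 MAP kinase phosphatases and ERK feedback genes 5 rose, although the list median was only 0.02 and turned negative in some alternatives, down to -0.11. Dusp1, which switches off p38 and JNK, read 2.93, 3.28 and 3.00 with EPO and 1.41, 1.55 and 1.44 in sham, a 3.04-fold rise called in all 23 alternatives (1.61 ± 0.14). Dusp5 was 3.51-fold higher and Dusp6 3.02-fold, and both act on ERK. The receptor tyrosine kinase inhibitors Spry2 (0.70 ± 0.08) and Errfi1 (0.64 ± 0.09) completed the 5.

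NF-kB feedback and adhesion genes rose in 6 of 18, with a median of 0.22. Zfp36, which marks cytokine transcripts for decay, read -4.34, -4.50 and -3.63 with EPO and -6.80, -6.48 and -5.92 in sham. No sham array was above background, and the rise was at least 1.23-fold (2.25 ± 0.25). Ptgs2, the inducible cyclooxygenase, read 0.97, 1.13 and 0.75 against -0.60, -1.60 and -1.60 and was 4.64-fold higher. Ptges, the synthase that works after Ptgs2 to make prostaglandin E, lies outside the list and was 3.45-fold higher. Icam1, the adhesion molecule for leukocytes, was 2.15-fold higher, Cd83 1.53-fold and Nfkb1 1.29-fold. Nfkbiz (0.78 ± 0.18) was called in only 2 of the 23 alternatives, and its other probe stood at -1.58 without a call.

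Other programmes gave fewer calls, though their shares mostly exceeded the 1.67% of all genes that rose. Matrix, protease and plasminogen genes rose in 3 of 20. These were the protease inhibitor Timp1 (3.24-fold), the protease Adamts1 (at least 1.46-fold, 2.14 ± 0.32, with no sham array above background) and the plasminogen activator Plat (1.61-fold). Growth factors and neurotrophins rose in 2 of 20, Bdnf and the stress cytokine Gdf15, which rose by 2.17 ± 0.47 with 1 sham array above background. Vegfa, the vascular growth factor, was at 0.24 ± 0.10 (adjusted p = 0.323). Hypoxia and HIF targets rose in 3 of 25, with the heme oxygenase Hmox1 at 0.99 ± 0.17, the vasodilator Adm at 0.79 ± 0.16 and the collagen hydroxylase P4ha1 at 0.58 ± 0.11. The HIF targets Ldha (0.27 ± 0.07) and Ndrg1 (0.27 ± 0.09) did not pass.

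Cell stress and death lists were likewise led by a few members. Of 16 genes of the unfolded protein and integrated stress response 2 rose, Ppp1r15a (GADD34, which lets translation resume) at 2.97-fold and the chaperone Hspa5 at 1.30-fold. Hspa5 was called in 3 of the 23 alternatives. Trib3 (0.68 ± 0.22) did not pass, nor did the brighter probe of Chac1 (0.58 ± 0.14, adjusted p = 0.0565), whose dim second probe was called (0.66 ± 0.13, adjusted p = 0.0169). Of 21 apoptosis and p53 genes 4 rose: Gadd45g (3.12-fold), Gadd45b, the survival factor Mcl1 (1.47-fold) and Phlda1 (1.79-fold). Of the 3 probes of Mcl1, a dim one stood at -1.73 without a call. Cdkn1a, the p53 target that halts the cell cycle, was at 0.64 ± 0.21 (adjusted p = 0.209). Antioxidant and metallothionein genes rose in 2 of 16, Hmox1 and Mt1 (1.52-fold), and cholesterol genes in 3 of 18, among them Idi1 (1.64-fold) and Insig1 (1.43-fold). Interferon response genes passed in 0 of 24 (median -0.05) and subunits of oxidative phosphorylation in 0 of 17 (median 0.13). Of 16 circadian clock genes 1 rose, the repressor Nfil3 (2.50-fold), and 1 fell, Tef. Of 13 glucocorticoid response genes 2 rose, Dusp1 and Errfi1, with a list median of -0.03, while Fkbp5, a classic target of the hormone, was at -0.53 ± 0.14 (adjusted p = 0.107) by its brightest probe. Of its other 2 probes 1 was called lower (-0.56 ± 0.11, adjusted p = 0.0227).

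**Figure D3:**
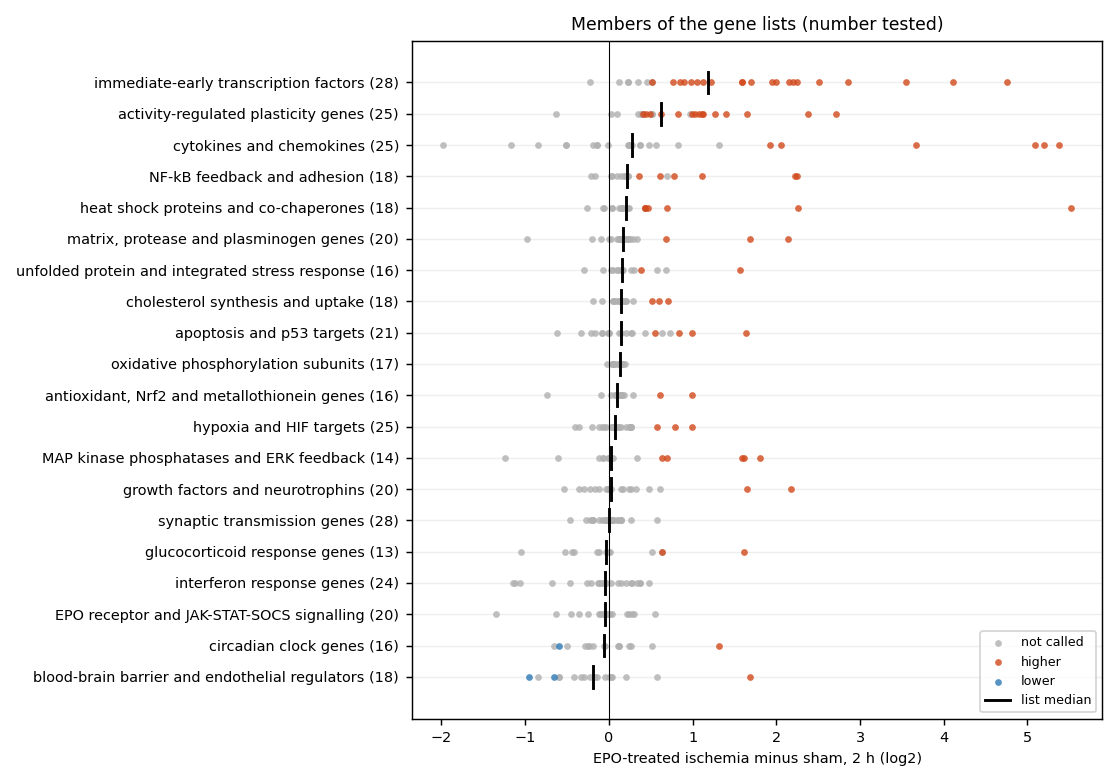
Log2 difference between EPO-treated ischemia and sham at 2 h for each tested member of 20 gene lists, with the number tested in brackets; each point is 1 gene, coloured where called, and the black bar is the list median. Immediate-early factors (median 1.18) and plasticity genes (0.62) are shifted as lists, while cytokines and heat shock proteins have a few members far to the right and medians of 0.28 and 0.20.

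Several of the 63 genes at least 2-fold higher lie in none of the lists and were singled out after their values were seen. The largest was Abra (probe A_42_P600215), an actin-binding protein, which read 0.73, -0.26 and -0.29 with EPO and -2.55, -3.17 and -2.81 in sham, a 7.48-fold rise (2.90 ± 0.34, adjusted p = 0.000426). Tfpi2, a protease inhibitor, was above background on 0 sham arrays and at least 2.05-fold higher (2.15 ± 0.21). C3h11orf96 was 4.04-fold higher, the transcription factor Msc rose by 1.62 ± 0.24 and the cyclic AMP phosphodiesterase Pde4d was 2.67-fold higher. Coq10b, a mitochondrial coenzyme Q protein, was 2.52-fold higher and read 3.60, 3.63 and 3.61 with EPO against 2.52, 2.22 and 2.11. Ch25h, which makes an oxysterol, was 2.46-fold higher and Rln1, a relaxin, 2.44-fold. Just under 2-fold was the mitochondrial carrier Slc25a25, at 1.96-fold.

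Receptors and regulators of inflammation were among them as well. The TNF receptor Tnfrsf1b was 2.18-fold higher, the nectin-like receptor Pvr 2.22-fold and the acute-phase transcription factor Cebpd 2.12-fold. Smaller changes were called for its relative Cebpb (1.64-fold) and for receptors of myeloid cells: the platelet activating factor receptor Ptafr (0.75 ± 0.07), the complement receptor C5ar1 (0.69 ± 0.08) and the nucleotide receptor P2ry6 (0.57 ± 0.06). Of the anticoagulant receptors of endothelium, Procr was at 0.79 ± 0.15 and Thbd at 0.65 ± 0.12, called in 12 and 13 of the 23 alternatives. Among membrane proteins of neurons, the potassium channel subunits Kcnv1 (0.66 ± 0.06) and Kcna4 (0.60 ± 0.09) and the cholecystokinin receptor Cckbr (0.83 ± 0.13) were higher. Depp1 (1.35 ± 0.27), Sct (1.34 ± 0.29) and Zfp819 (1.15 ± 0.22) rose as well but were called in 13, 7 and 8 of the 23 alternatives.

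By the probe that stands for each gene the falls were all less than 2-fold, and fewer alternatives called them than the rises. The 15 largest rises were called in 19 to 23 of the 23 alternatives and the 12 largest falls in 5 to 21. None of the 30 lower genes was called with the array median as the scale. Sox18 (probe A_42_P623913), a transcription factor of endothelium, read -0.97, -0.58 and -0.41 with EPO and 0.43, 0.42 and 0.09 in sham, 1.95-fold lower (-0.96 ± 0.14, adjusted p = 0.00309). Its other probe, A_44_P454913, was called at -1.04 ± 0.17, the only called probe at least 2-fold lower. The fall of the first probe was -0.49 on slide 4. Srarp (probe A_44_P1032934), a partner of steroid receptors, read -1.08, -1.06 and -0.95 against 0.01, 0.02 and -0.24, also 1.95-fold lower. Mrpl41 (probe A_44_P1019454), a protein of the mitochondrial ribosome and the brightest of the falls, read 4.28, 4.19 and 4.28 against 4.90, 4.97 and 5.34, 1.77-fold lower.

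Fzd9, a Wnt receptor (probe A_44_P367465), was called in 21 of the 23 alternatives, more than any other of the 30 lower genes. It read -0.23, -0.34 and -0.28 with EPO and 0.34, 0.20 and 0.31 in sham, 1.48-fold lower (-0.56 ± 0.07, adjusted p = 0.00116). Klf15, a transcription factor that glucocorticoids induce, read 2.24, 1.95 and 2.04 against 2.58, 2.64 and 2.68, 1.47-fold lower. Degs2, an enzyme of sphingolipid synthesis, was 1.57-fold lower, and Tef, a clock output factor, 1.5-fold lower. Tef was called in 7 of 23 and was at -0.13 on slide 4. Dido1, Prkd2, Zbed5 and C15h8orf58, at -0.93, -0.76, -0.69 and -0.59, are dim and were called in 12, 10, 10 and 5 of 23.

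Outside the 12 largest falls, Mcf2l, a guanine nucleotide exchange factor, was 1.38-fold lower (-0.46 ± 0.06) and the hyaluronidase Hyal2 1.42-fold lower. Tmem204, a membrane protein of endothelium, was 1.36-fold lower, called in 9 of 23. The widest negative difference of all genes, that of Zscan25, did not pass: it read -5.20, -3.63 and -3.12 with EPO and -0.46, -1.43 and -1.02 in sham (-3.01 ± 0.74, adjusted p = 0.0732). Blood-brain barrier and endothelial regulators had 1 rise, the early response gene Apold1 (3.22-fold), and 2 falls, Sox18 and Degs2, among 18, with a median of -0.19 that ran from -0.35 to 0.11 over the alternatives. The endothelial list of cell type markers had 0 of 12 called and a median of -0.17, which was 0.04 without EPO replicate 1. Cldn5 was at -0.30 ± 0.14, and the 1 positive member was Kdr at 0.58 ± 0.15 (adjusted p = 0.0903). The mean level of this list was -1.47, -1.01 and -0.73 on the EPO arrays and -0.73, -0.99 and -1.11 on the sham arrays, lowest on EPO replicate 1. The part of endothelial cell number in these values was not tested.

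Genes of the EPO pathway itself did not pass. Of 20 tested members of the EPO receptor and JAK-STAT-SOCS list 0 rose and 0 fell, with a median of -0.05. Epo was above background on 0 of 3 EPO arrays and 1 of 3 sham arrays and was not tested. The array measures the rat's own transcript and not the EPO that was given. Epor (probe A_44_P486972) was dim, at -3.97, -3.80 and -2.91 with EPO and -2.53, -3.64 and -3.15 in sham, with overlapping groups (-0.45 ± 0.34, adjusted p = 0.596). Cish and Socs3, feedback inhibitors that STAT factors induce, were at -0.36 ± 0.16 and 0.55 ± 0.22 (adjusted p = 0.366 and 0.309). Jak2 was at 0.24 ± 0.11 and Stat3 at 0.28 ± 0.10. At this precision a change of Socs3 or Epor cannot be separated from the spread between arrays.

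Markers of brain cell types gave few calls, and their levels also bear on the label of the tissue. Neuronal markers such as Snap25, at 6.26 to 6.41 on all 6 arrays, oligodendrocyte markers, at a mean level of 2.84 to 3.06, and the astrocyte connexin Gja1, at 4.22 to 4.41, were bright. Of 10 neuron, 9 interneuron, 11 astrocyte, 13 oligodendrocyte and 15 microglia and macrophage markers, 0, 0, 1, 1 and 1 rose and 0 fell. Oligodendrocyte precursor markers had 0 of 5 called. The 3 were Sox9 (1.58-fold), Sox10 (1.25-fold) and the endotoxin co-receptor Cd14 (1.78-fold). Other probes of Sox9 did not pass, and Sox10 and Cd14 were called in 6 and 8 of 23. Oligodendrocyte markers had a median of 0.19, with 11 of 13 positive and 5 higher without overlap, against 9.54% of all probes. At 6 h 5 of these 13 were called higher, against 9% of all genes. Microglia and macrophage markers had a median of 0.20, with 8 of 15 positive and 5 higher without overlap. The medians of the neuron, interneuron and astrocyte lists were 0.05, 0.15 and -0.04. Gfap, the filament of reactive astrocytes (probe A_44_P464502), read 1.93, 2.49 and 2.23 against 1.99, 2.01 and 1.57 and did not pass (0.36 ± 0.19, adjusted p = 0.471). In tissue RNA, fewer cells of a type and less RNA per cell cannot be told apart.

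Markers of cells that dissection or blood could add gave 1 call at 2 h, but some lists were shifted. Striatal neuron markers, from the region below the cortex, had 0 of 10 called and a median of 0.38, which stayed between 0.23 and 0.69 over the alternatives. They were positive in 9 of 10 and higher without overlap in 4, against 9.54% of all probes. Their median against sham was 0.48 with saline, and at 6 h 7 of the 10 were called higher with EPO, against 9% of all genes. Their mean level was 0.86, 1.03 and 0.98 with EPO and 0.19, 0.88 and 0.67 in sham, lowest on sham replicate 1. The choroid plexus gene Ttr read 4.76, 3.53 and -1.14 with EPO and 3.99, 0.80 and 5.28 in sham, so no order of the groups can be read from it, and the choroid plexus list had 0 of 6 called. The lymphocyte list had a median of -1.17 and 0 of 8 called, with mean levels of -4.88, -3.28 and -2.80 against -2.14, -2.92 and -3.12. Only 3 of these 8 were above background on all 6 arrays, and the median was -0.37 without EPO replicate 1. Neutrophil markers had 0 of 7 called, with S100a8 at 1.40 ± 0.39 (adjusted p = 0.122) and S100a9 at -0.38 ± 0.58. Mural cell markers had 1 of 10 called, the vessel potassium channel Kcnj8 (1.68-fold), and meningeal and red cell markers had 0 of 8 and 0 of 3. The part of dissection and of blood cells in the differences above was not tested.

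Whether EPO altered this response can be read only against ischemic rats given saline at 2 h, of which there were 3. Limma called 0 of 28634 probes between EPO and saline (0%), with 379 at an unadjusted p below 0.05 and a smallest adjusted p of 1. Both groups share the sham arrays as their baseline, so their differences from sham are given side by side and not correlated. With saline, 177 genes were higher than sham (1.42%) and 27 lower (0.217%). Hspa1a was at 5.49 with saline and 5.52 with EPO, Fos at 3.78 and 3.55, Cxcl1 at 5.50 and 5.2, Npas4 at 4.59 and 4.11, Arc at 2.72 and 2.38 and Bdnf at 1.53 and 1.65.

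The direct differences between EPO and saline were small for the genes that moved against sham. Over the 238 genes called against sham the median absolute difference was 0.06, 237 were within 0.5 and 8 had an unadjusted p below 0.05. The 95% interval of the difference between EPO and saline held 0 for all 15 largest rises and for 11 of the 12 largest falls. It ran from -0.33 to 0.39 for Hspa1a, from -0.07 to 0.50 for Hspb1, from -0.90 to 0.45 for Fos and, at its widest, from -1.56 to 0.60 for Npas4. These intervals bound the size of an effect of EPO on each gene but do not show that it was absent.

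The genes of smallest p between EPO and saline included Gpsm2, Bok, Mtif2 and Chrna5, higher with EPO by 0.21 to 0.88, and Klhl24, Sox2, Slitrk3 and Ntm, lower with EPO, at -0.20 to -0.31. Their adjusted p was 1. For Sox2, a factor of stem cells and astrocytes, the levels were 1.72, 1.76 and 1.59 with EPO and 1.99, 2.07 and 1.95 with saline. These do not overlap, which the choice of genes by small p favours, so the gap cannot be read as an effect of EPO.

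**Figure D4:**
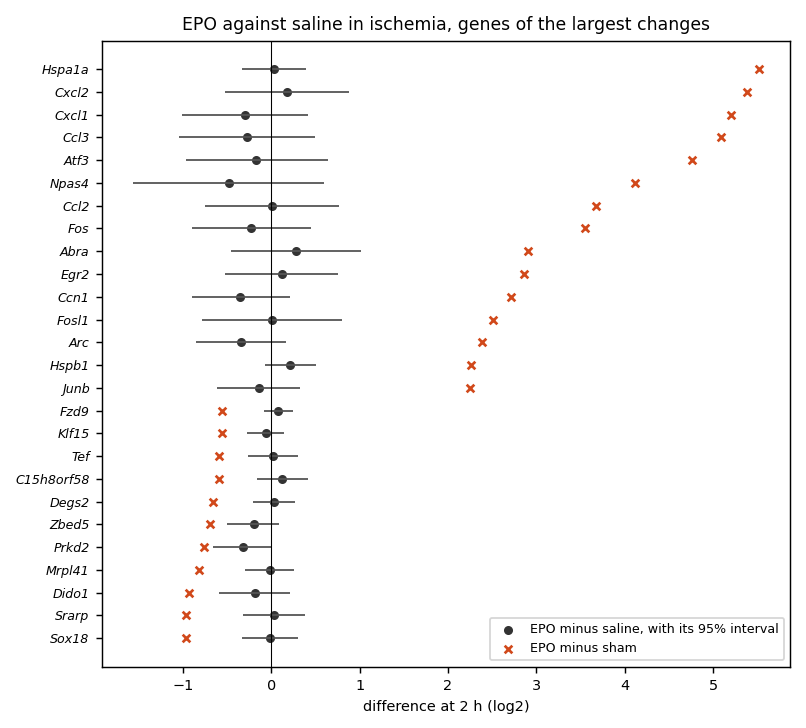
Differences at 2 h for the 15 largest rises and 11 of the 12 largest falls against sham: circles are EPO minus saline with the 95% interval of the fit as bars, and crosses are EPO minus sham, both in log2 units. The circles lie near 0 while the crosses run from -0.96 to 5.52.

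The same comparison at 6 h used other animals, 3 with EPO and 3 sham, so the change between the times could be tested directly. At 6 h 1119 genes were higher than sham (9%) and 1041 lower (8.38%). The difference from sham became more positive by 6 h for 234 genes (1.88%) and more negative for 174 (1.4%). Of the 208 genes higher at 2 h, 168 were also higher at 6 h. Their time change was called positive for 30 and negative for 15. Of the 30 lower genes, 14 were lower at 6 h, and the time change was called positive for 4 and negative for 3. With the array median as the scale the median time change over all probes was -0.45 in place of 0.05, and 1 probe was called in place of 713. Nearly all calls, of large changes as well as small ones, were thus lost with that scale. The direction of small changes depends on the scaling too.

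Among the 30 that went further up were genes of heat shock, heme breakdown and inflammation. Of the 18 heat shock genes, 3 had a called positive change: Hspa1a, Hspb1 and Hsph1. Hspa1a was at 5.52 at 2 h and 6.64 at 6 h (change 1.12, adjusted p = 0.0269), and Hspb1 at 2.26 and 3.60 (change 1.33, adjusted p = 0.00249). Hmox1 was at 0.99 and 2.94, Gadd45b at 0.99 and 2.79, Adm at 0.79 and 2.37, Timp1 at 1.69 and 3.10 and Icam1 at 1.11 and 2.37, each with a called change. Genes with no call at 2 h appeared at 6 h: the interferon-induced Gbp2 went from 0.33 to 2.47, the proteoglycan Sdc1 from 0.21 to 2.13 and the pseudokinase Trib3 from 0.68 to 2.95. Interferon response genes were called higher in 10 of 24 at 6 h and in 0 at 2 h, with a called positive change for 7.

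For 15 of the higher genes the difference shrank. Abra fell back from 2.90 to 0.08 (change -2.82, adjusted p = 0.00926), the most negative change of the 238 genes. Nr4a2 went from 1.05 to 0.32 (adjusted p = 0.0095) and Pde4d from 1.42 to 0.62, and both were still called higher than sham at 6 h. No longer called were Tnfrsf11b, a decoy receptor of bone and vessel, which went from 0.95 to -0.16, and Cckbr, which went from 0.83 to 0.07. Kcnv1 went from 0.66 to -0.41, which was called lower than sham, and Kcna4 from 0.60 to -0.18, which was not. The time change was called for both. For Egr1 the values were 1.59 and 0.87 and for Dusp6 1.59 and 0.76, without a called change (adjusted p = 0.0811 and 0.0728). Fos (3.55 and 3.32), Arc (2.38 and 2.49), Junb (2.25 and 2.19) and Cxcl1 (5.2 and 4.91) were at like values at both times, and none of these changes passed (adjusted p = 0.782, 0.863, 0.925 and 0.740).

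**Figure D5:**
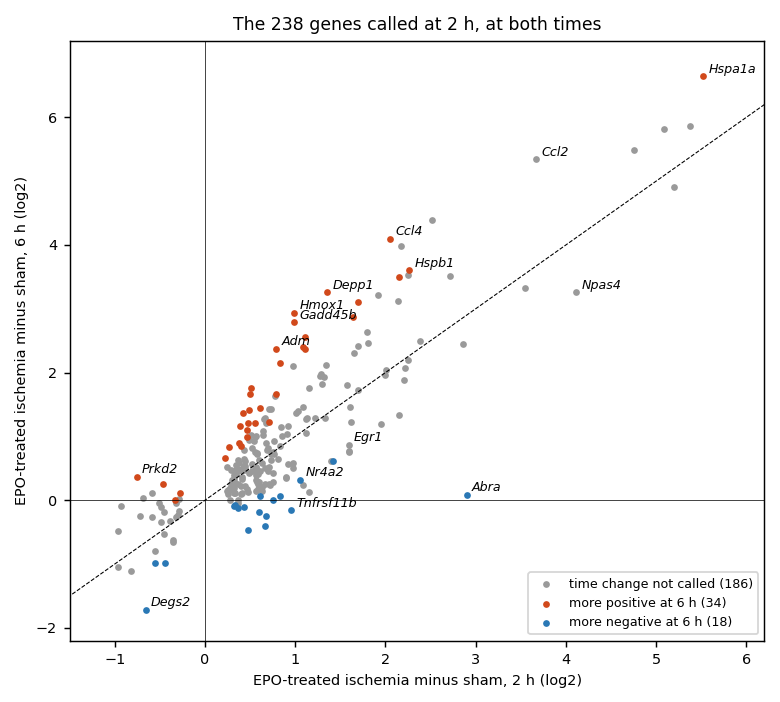
Log2 difference between EPO-treated ischemia and sham at 2 h (x axis) and 6 h (y axis) for the 238 genes called at 2 h; each point is 1 gene, the dashed line marks equal values, and colours mark a called change between the times. The change was called positive for 30 of the higher and 4 of the lower genes (red), such as Hspa1a and Hmox1, and negative for 15 and 3 (blue), with Abra back near 0.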

How the data were processed

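Total RNA of rat brain cortex was labelled with Cy3 and hybridized to 1-colour arrays, 1 sample per array. The deposited raw files hold, per spot, a background-subtracted processed signal (an intensity in linear units), written by Agilent Feature Extraction 9.1.1.1 per the file headers and the submitters' processing notes. The authors' deposited value table holds log2 signal without scaling between arrays and was used only as an alternative. The sources used here do not state the authors' own tests.

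Control spots and spots marked as outliers were left out, spots of a probe were averaged on the log2 scale, and each array's 75th percentile was subtracted. Of 41012 probes, 28634 were tested, namely those that all 3 arrays of 1 or more groups read well above background; 345 were left out for outlier spots. Names came from RefSeq by accession (10735 probes), symbol (5571) or unique synonym (3729), and 20977 stayed unnamed; a gene was represented by its brightest probe on average. Limma 3.58.1 in R 4.3.3 fitted 1 model of 6 group means to all 18 arrays (12 residual degrees of freedom), with moderated tests, two-sided, adjusted by Benjamini-Hochberg at 0.05. The same procedure was run on simulated data with independent normal noise for each probe. That simulation held no effect of slide, slope or scan day, so it does not bear on those.

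A fold is given as "at least" where no array of the lower group was above background, and is left out where only part of them were. Each dim array then enters at its lowest signal well above background, or at the probe's signal where that is higher. Deviations of EPO and sham arrays of the same replicate number were not positively correlated (-0.392, -0.0578 and -0.421). With 3 arrays per group that also differ in slope, these values cannot show whether the numbers mark a shared day or litter. No label says that they do. Between EPO and saline all same-number pairs exceeded 0.1 (0.887, 0.654 and 0.635), with both replicates 1 on the steep spike-in slope and EPO replicate 3 closest to saline replicate 2. With the replicate number as a block, EPO against saline also gave 0 probes (357 at an unadjusted p below 0.05).

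The comparison, the gene lists and the rule for naming genes were chosen with earlier results of these data known. By that rule the text names the 15 largest rises, the 12 largest falls, from each list at most the 5 members of smallest p, 6 genes each way for the time test, the 5 of smallest p each way between EPO and saline, and 10 genes in every case (Gfap, Ccl2, Il1b, Hspa1b, Epo and its receptor, and the activity genes Fos, Egr1, Arc and Bdnf); the other called genes were added after their values were seen. Some genes under this rule are not reported here. Alternatives changed the arrays in the fit, the scaling, the background correction, the probe filter, the variance model, slide and slope terms, the replicate block and the threshold, and left out each array in turn.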

Additional observations from a re-analysis of the deposited data

Results flagged for a closer look

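For the genes below the difference between EPO-treated ischemia and sham itself differed between 2 h and 6 h, by the limma test of the change between the times (log2, 6 h minus 2 h, adjusted p below 0.05). No explanation was weighed. Among genes of leukocyte recruitment and clotting, the changes were 5.82 for Serpinb2, 4.62 for Sele, 4.55 for Ccl20, 3.38 for Ccl12, 2.04 for Ccl4, 1.33 for Tfpi2 and 0.88 for Procr. Serpinb2, Sele, Ccl20 and Ccl12 were above background on at most 1 array of either group at 2 h. Spp1, the secreted protein osteopontin, changed by 4.07 and Zscan25 by 4.67, with differences of -3.01 at 2 h and 1.66 at 6 h that were not called themselves. Stress chaperones changed by 1.33 (Hspb1) and 1.12 (Hspa1a), and transcription factors by 1.32 (Cebpd), 1.24 (Myc) and 0.52 (Cebpb). Depp1 changed by 1.91, Nptx2 by 1.44 and Prkd2 by 1.12.

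Negative changes were found for genes that had been higher at 2 h, namely Abra (-2.82), Tnfrsf11b (-1.11), Kcnv1 (-1.07), Pde4d (-0.80), Kcna4 (-0.78) and Cckbr (-0.76). Genes not called at 2 h were the neuropeptide Y receptor Npy1r (-1.66), the neuronal transcription factor Neurod6 (-1.59), Tmem273 (-1.22), Lrrn3 (-1.13) and Slitrk3 (-0.61). Degs2 (-1.06), Tmem204 (-0.55) and Fzd9 (-0.43) were lower than sham at 2 h and further lower at 6 h. The test between the times is sensitive to the scaling, as the next part shows. With the array median 1 probe was called in place of 713, so large changes lost their calls as well. Changes near 0.5 are the least firm in direction.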

How the results depend on the processing

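Of the 406 probes called between EPO-treated ischemia and sham at 2 h (335 higher, 71 lower), fewer were called with the 6 arrays of the 2 groups alone (13, 13 and 0), the 9 arrays at 2 h (137, 127 and 10), without the 6 arrays of steep slope (151, 134 and 17), with the array median (101, 101 and 0), the authors' unscaled values (171, 110 and 61), the slide as a fixed block (133, 123 and 10) and an adjusted p below 0.01 (202, 179 and 23). No filter gave 42 lower probes. The spike-in slope as a covariate gave 321 probes (263 higher and 58 lower), of which 277 were among the 406. The percentile over the probes tested, an alternative chosen after seeing the data, gave 140 lower. Leaving out 1 array gave 231 to 322 in all, 207 to 276 higher and 24 to 68 lower. The replicate block gave 334 probes, though no label says that the numbers pair these arrays. EPO against saline gave 0 throughout. The time test called 713 probes, and 241 with the 12 arrays compared, 99 without the steep arrays, 1 with the array median, 262 unscaled, 333 without a filter, 216 with the slide block, 176 at 0.01, 495 with the replicate block and 327 to 1025 without 1 array. Of 30 lower genes, 0 were called with the array median and 19 with the replicate block; of 63 genes at least 2-fold higher, 58 and 62. The cause of these losses was not tested, apart from the fewer arrays of the smaller fits. Dim genes are limited by signal over background.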
